A study of Homo sapiens with 6 samples.

Results

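The genes for TEAD1, TEAD4, WWTR1 (the protein TAZ) and VGLL4 encode members of the complex that binds DNA at the end of the Hippo pathway, and the peaks around them were examined to see where TEAD and YAP occupy the genes of their own complex. Members were all deposited peaks that overlapped a window reaching 100 kb to each side of an hg19 gene span, with the spans given to the nearest kb as TEAD1 chr11:12696000-12966000, TEAD4 chr12:3069000-3150000, WWTR1 chr3:149235000-149455000 and VGLL4 chr3:11598000-11762000. These windows cover 1535 kb and held 27 of the 22804 peaks in the series: 19 of 9321 TEAD peaks, 6 of 9616 YAP5SA peaks and 2 of 3867 YAP peaks. The data are chromatin immunoprecipitation sequencing (ChIP-seq) peak lists from CCLP1, an established human bile duct cancer cell line, fixed for 10 min in 1% formaldehyde. The 3 libraries with a list were a TEAD antibody (TEAD1, by the series' design text), Flag-Bio-YAP5SA, a tagged YAP mutant that lacks serines targeted by the LATS kinases and is called YAP5SA here, and a YAP antibody against the cells' own YAP. With a single library behind each list there is no replicate error, and no test between conditions was possible. Libraries of IgG, input DNA and BirA, the control of the tagged protein, were not analysed here, so the peaks stand without a measured background. How YAP5SA was expressed is not stated in the sources used here, and peak lists do not allow a check of the cell type against marker genes.

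TEAD proteins are transcription factors that bind DNA through their TEA domain and need a co-factor to activate genes. YAP and its relative TAZ, the product of WWTR1, are co-activators without a DNA-binding domain of their own, which enter the nucleus when the Hippo kinases are off and sit on chromatin mainly through TEAD. VGLL4 binds TEAD at a surface that overlaps the one used by YAP and TAZ, and it counteracts them.

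TEAD peaks were present at all 4 loci, YAP5SA peaks at 3 and YAP peaks at 2. The TEAD1 window held 3 TEAD, 2 YAP5SA and 1 YAP peak, and the TEAD4 window likewise held 3 TEAD, 2 YAP5SA and 1 YAP peak. The WWTR1 window held 11 TEAD and 2 YAP5SA peaks and no YAP peak. The VGLL4 window held 2 TEAD peaks and none of either YAP form. Per length, the 4 windows had 12.4 TEAD peaks per Mb (exact 95% Poisson interval 7.45 to 19.3, counting error only), against 3.10 per Mb over the whole TEAD list, a ratio of 3.99. The ratio was 1.22 for YAP5SA, from 3.91 peaks per Mb at the loci (interval 1.43 to 8.51) and 3.20 over its list. For YAP it was 1.01, from 1.30 peaks per Mb at the loci (interval 0.158 to 4.71) and 1.29 over its list. At the 4 loci together, then, the density of TEAD peaks lay above that of its list, and those of YAP5SA and YAP lay within their intervals of their own lists. The list density is a mean over 3006 Mb, whether or not genes lie there, and windows around genes outside the complex were not counted. Whether gene windows in general hold more TEAD peaks was therefore not tested. The intervals also treat peaks as independent, which neighbouring peaks are not.

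WWTR1 alone held 11 of the 19 TEAD peaks. Its window had 26.2 TEAD peaks per Mb (interval 13.1 to 46.9), a ratio of 8.45 to the list, while TEAD4 had 10.7 per Mb, TEAD1 6.38 and VGLL4 5.49, each with an interval that includes the list value of 3.10. Without WWTR1, a comparison added after seeing the data, the other 3 windows had 8 TEAD peaks in 1115 kb, or 7.17 per Mb, a ratio of 2.31, and the interval of 3.10 to 14.1 then reached down to the list value. The gene spans alone held 11 of the 19 TEAD peaks, at 15.0 per Mb, and the flanks 8, at 10.0 per Mb.

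**Figure D1:**
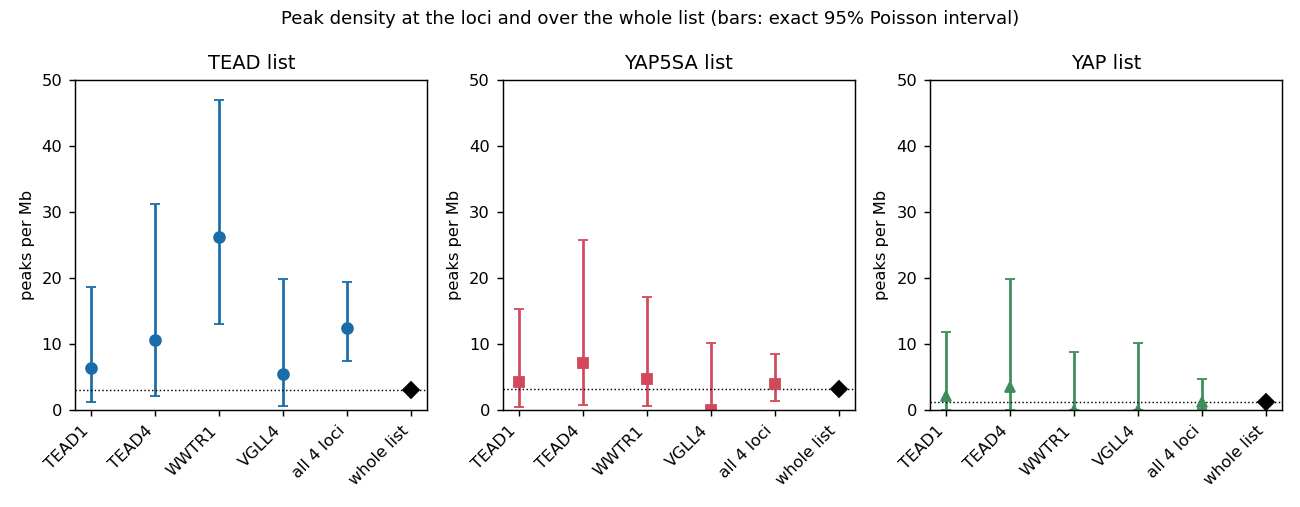
Peaks per Mb in each window, in the 4 windows together and over the whole list (black diamond and dotted line), for the TEAD, YAP5SA and YAP lists; bars are exact 95% Poisson intervals of the counts. The WWTR1 window stands at 26.2 TEAD peaks per Mb against 3.10 for the list, whereas single windows of YAP5SA and YAP rest on 0 to 2 peaks, with wide intervals that include the list value.

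TEAD1 encodes a founding member of the family and is the factor that the antibody is said to recognise. Its strongest peak lay at its own start, at chr11:12695713-12696152, with a score of 881, rank 162 in the TEAD list (the strongest 1.74%). The score is the peak caller's value per peak, deposited by the authors, and was used only to rank peaks within a list; listed scores run from 50 to 3100. The centre of this peak was 0.068 kb from the start of the span, which is closer than the 1 kb to which the span is given. A YAP5SA peak at chr11:12695823-12696026 with a score of 95.4 (rank 352, the strongest 3.66% of its list) lay wholly inside it, with centres 8 bp apart.

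The other TEAD peaks of the TEAD1 window were inside the gene, 19.2 kb from its start with a score of 78.7 and 95.7 kb from its start with a score of 111. A second YAP5SA peak stood between them at 78.6 kb, with a score of 74.2, and its nearest TEAD peak was 17.2 kb away. The only YAP peak, chr11:12988764-12989082, lay outside the gene, 22.9 kb past its end on the side of RASSF10, the sole protein-coding neighbour within 100 kb in the RefSeq gene table. It scored 53.6, rank 2956 of 3867, and was 197 kb from the nearest TEAD peak. At TEAD1, therefore, a YAP5SA peak overlapped the TEAD peak at the gene start, and the listed YAP peak was 293 kb from that start.

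TEAD4 encodes another TEAD factor with the same kind of DNA-binding domain. Its window matched that of TEAD1 in peak counts and in having its strongest TEAD peak near the gene start. By the spans as given, the TEAD and YAP5SA peaks of TEAD4 all lay outside the span, whereas those of TEAD1 lay in it or overlapped its edge. For the peaks at the gene starts this is no difference between the genes that the spans can resolve. Both TEAD centres lay before the span start, by 0.068 kb at TEAD1 and 0.404 kb at TEAD4, less than the 1 kb to which spans are given. The strongest TEAD peak, chr12:3068437-3068756, had its centre 0.404 kb before the start of the span and scored 720, rank 252 (the strongest 2.70% of the list). A YAP5SA peak at chr12:3068453-3068594 lay wholly inside it, with centres 73 bp apart. Its score was 50.4, rank 9350 of 9616, next to the lowest score the list holds, so this YAP5SA peak would be lost under a slightly stricter threshold.

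The other TEAD peaks of this window were weak and far from the start. One stood 82.6 kb upstream with a score of 63.1, on the side where TULP3, RHNO1, FOXM1 and ITFG2 lie. The other stood 63.8 kb past the end of TEAD4, on the side of TSPAN9, with a score of 55.2, and a YAP5SA peak with a score of 52.2 lay 1.98 kb from it without overlap. The YAP peak, chr12:3110941-3111129, lay inside TEAD4 at 42.0 kb from the start. It scored 60.1 (rank 1619 of 3867) and was 42.4 kb from the nearest TEAD peak and 42.5 kb from the nearest YAP5SA peak.

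The window of WWTR1, the gene for the co-activator TAZ, held the most TEAD peaks of the 4 loci, and none at the gene start. The TEAD peak nearest to the start of the span lay 15.7 kb inside it with a score of 56.5, and the next lay 40.5 kb upstream with a score of 69.4. The WWTR1 span is 12.4 kb longer than the gene in the RefSeq table, so its start, and the distances from it, are less certain than at the other loci. Further inside, a peak 134 kb from the start, chr3:149321229-149321553, scored 203 (rank 1442), and one at 161 kb scored 88.4. Toward the end of the gene came a cluster of 3 TEAD peaks in 4.52 kb, chr3:149253672-149258190, with scores of 58.3, 87.2 and 199. A cluster was 3 or more peaks of the list, each within 12500 bp of the next. The strongest peak of this cluster, chr3:149257774-149258190, contained a YAP5SA peak, chr3:149257840-149258147, with centres 11.5 bp apart. That YAP5SA peak scored 147, rank 128 in its list (the strongest 1.33%), the highest rank of any YAP5SA peak at the 4 loci.

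The highest-scoring TEAD peak of the WWTR1 window was not in the gene. It lay 50.9 kb past the gene's end at chr3:149183964-149184326, on the side of TM4SF4, scored 557 (rank 383) and overlapped no YAP5SA peak, the nearest being 73.8 kb away. It belonged to a second cluster of 3 peaks in 17.4 kb, chr3:149172778-149190155, whose other scores were 54.8 and 113. A further TEAD peak stood 90.7 kb past the end with a score of 78.0. The other YAP5SA peak of the window, 92.0 kb upstream on the side of COMMD2, ANKUB1 and RNF13, scored 50.5 and was 51.6 kb from any TEAD peak. The 11 TEAD peaks of this window thus ran in score from 54.8 to 557, and a YAP5SA peak overlapped 1 of them.

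VGLL4, the gene for the competitor, had TEAD peaks only, both inside the gene, and its flanks toward ATG7 and TAMM41 held no peak of any list. The stronger, chr3:11641783-11642284, lay 120 kb inside the gene with a score of 394 (rank 637, the strongest 6.83%) and was the widest TEAD peak at the 4 loci, at 502 bp. The weaker, chr3:11760998-11761269, lay 0.867 kb inside the start of the span with a score of 125, rank 2494. The nearest YAP5SA peaks were 350 kb and 259 kb away, outside the window, and the nearest YAP peaks 189 kb and 308 kb away. In contrast to the pair of TEAD genes, the peak at the gene start was here the weaker one and carried no YAP5SA peak. Most TEAD peaks at that score or higher had none either: of 2494, 408 (16.4%) overlapped a YAP5SA peak.

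**Figure D2:**
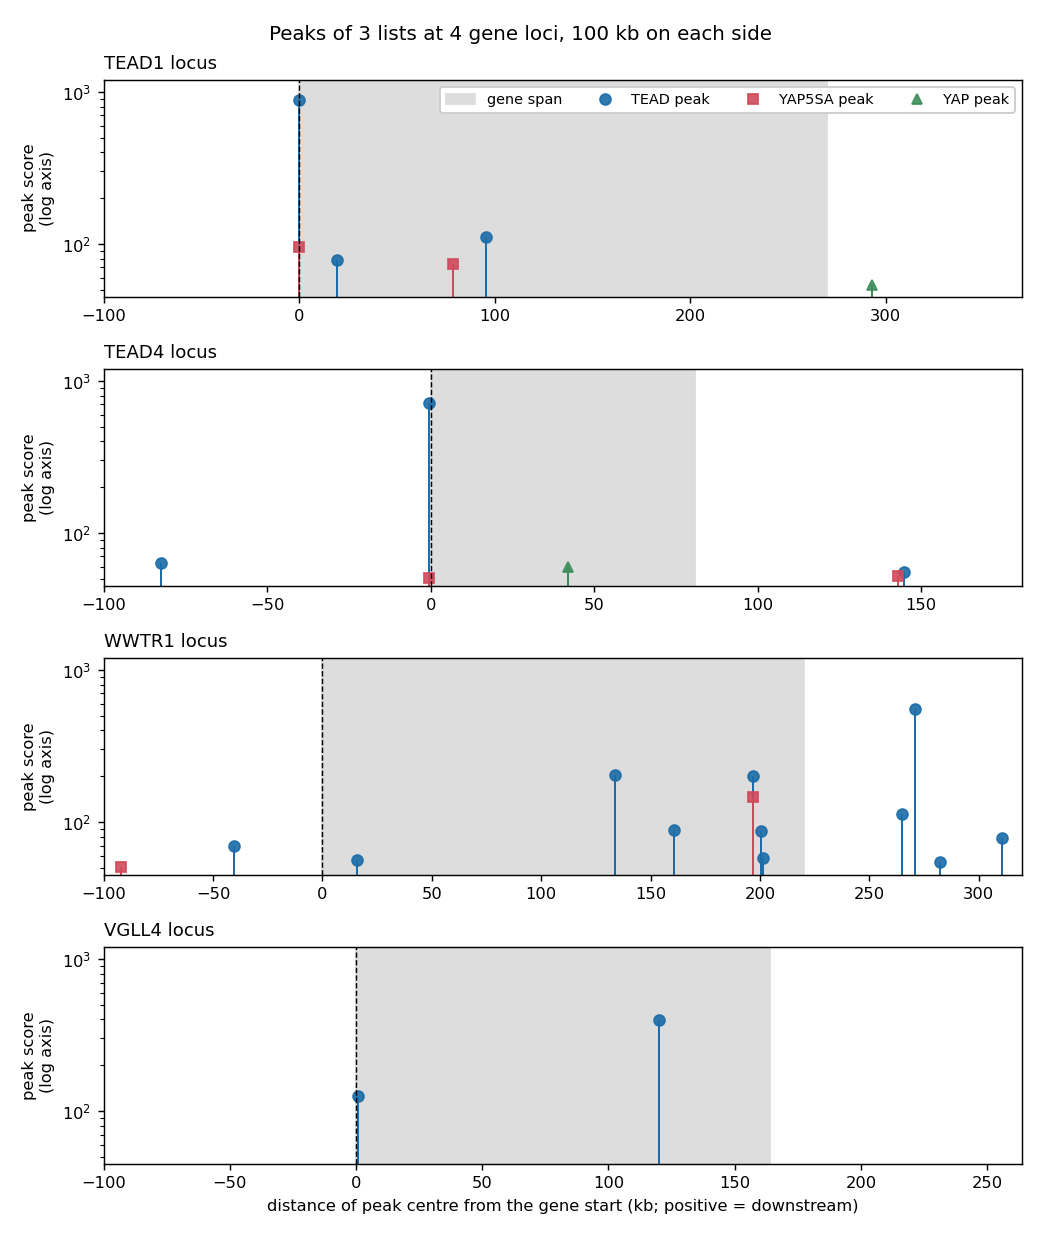
Score (log axis) of every TEAD, YAP5SA and YAP peak against the distance of its centre from the gene start in kb, with the gene span in grey and the start as a dashed line. At TEAD1 and TEAD4 the strongest TEAD peaks, with scores of 881 and 720, stand at the start with a YAP5SA peak; WWTR1 has 11 TEAD peaks, none at its start, and VGLL4 has 2.

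Overlap between the lists took the same form wherever it occurred. Of the 19 TEAD peaks at the loci, 3 overlapped a YAP5SA peak by at least 1 bp (15.8%, exact Clopper-Pearson 95% interval 3.38 to 39.6), where 5.49% of the whole TEAD list did. Of the 6 YAP5SA peaks, 3 overlapped a TEAD peak (50%, interval 11.8 to 88.2), against 5.44% of the whole YAP5SA list; the same 3 had a TEAD centre within 1 kb, against 5.95% of the list. All 3 YAP5SA peaks lay inside the TEAD peak and covered 46.4% of it at TEAD1, 44.4% at TEAD4 and 73.9% at WWTR1, so with a reciprocal overlap of 50% only the WWTR1 pair was left (5.26% of the 19 TEAD peaks). The whole-list share under that reciprocal rule was not computed, so the 5.49% is no counterpart to it. YAP5SA peaks had a median width of 164 bp over their list, against 214 bp for TEAD. How often an overlapping YAP5SA peak lies inside the TEAD peak over the whole lists was not counted. The intervals treat peaks as independent, which neighbours in a window are not, and the list shares are descriptions that no test was set against.

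No YAP peak met a TEAD or YAP5SA peak at these loci. None of the 19 TEAD peaks overlapped a YAP peak (interval 0 to 17.6%), where 4.48% of the TEAD list did, and none of the 6 YAP5SA peaks did (interval 0 to 45.9%), where 1.15% of that list did. Neither of the 2 YAP peaks met a TEAD peak, where 8.28% of the YAP list did, or a YAP5SA peak, where 2.64% did. The TEAD peaks at the starts of TEAD1 and TEAD4 belong to a part of the list where overlap was common. Of the 162 TEAD peaks that scored at least as high as the one at TEAD1, 97 (59.9%) overlapped a YAP5SA peak and 69 (42.6%) a YAP peak. Of the 252 that scored at least as high as the one at TEAD4, 141 (56.0%) overlapped a YAP5SA peak and 86 (34.1%) a YAP peak. Of the 1488 at or above the score of the shared WWTR1 peak, 361 (24.3%) overlapped a YAP5SA peak and 172 (11.6%) a YAP peak. The starts of TEAD1 and TEAD4 were among the strong TEAD sites with a YAP5SA peak and without a YAP peak. Read depth is unknown for all 3 lists, and a missing peak says only that none passed the authors' threshold.

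**Figure D3:**
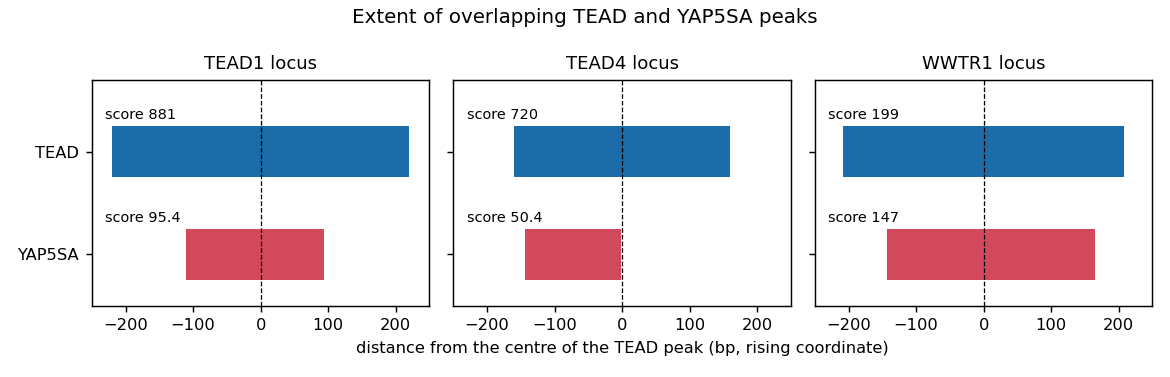
Extent in bp of the overlapping TEAD (upper bar) and YAP5SA (lower bar) peaks at TEAD1, TEAD4 and WWTR1, relative to the centre of the TEAD peak, with their scores. Each YAP5SA peak lies inside its TEAD peak, with centres 8, 73 and 11.5 bp apart.

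TEAD peaks at the loci covered weak and strong ranks of their list. They had a median score of 88.4 at the loci (54.8 to 881) and of 76.2 over the whole list, and 13 of the 19 exceeded the list median. Of the 19, 4 were among the strongest 10% of the list (21.1%, interval 6.05 to 45.6), against 10.0% by definition of that limit: the starts of TEAD1 and TEAD4, the peak past the end of WWTR1 and the peak inside VGLL4. Their median width was 244 bp, against 214 bp for the list. The share in clusters was close to that of the list, with 6 of the 19 in a cluster (31.6%, interval 12.6 to 56.6), against 29.5% of the list, and all 6 lay at WWTR1. The YAP5SA peaks had a median score of 63.2 at the loci and 57.0 over the list, with 3 of 6 above the list median, and the 2 YAP peaks scored 60.1 at TEAD4, above the YAP list's median of 57.9, and 53.6 at TEAD1, just below its lower quartile of 53.8.

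**Figure D4:**
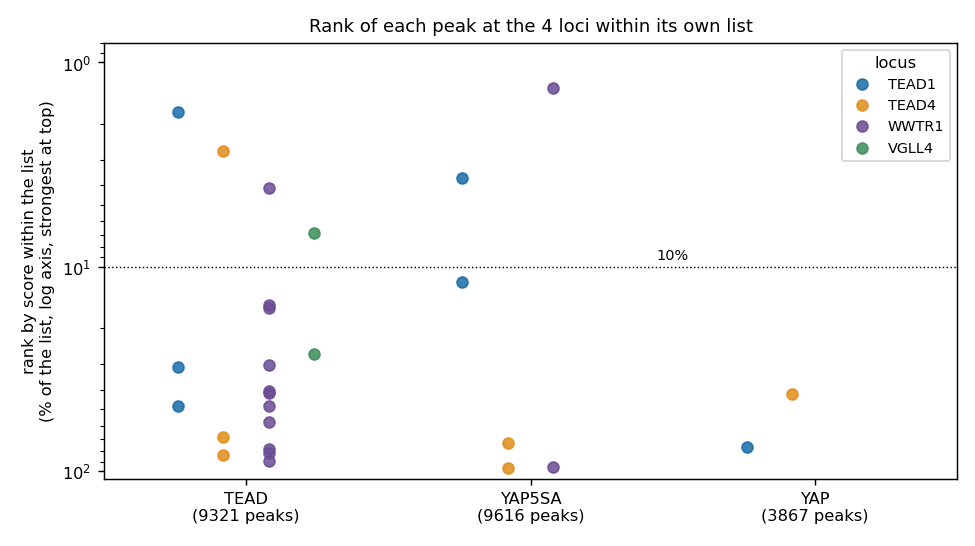
Rank by score of each peak at the 4 loci within its own list, as a percentage of the list on a log axis with the strongest at the top; the dotted line marks the strongest 10%. Each of the 4 loci has 1 TEAD peak above the line, YAP5SA has peaks above it at TEAD1 and WWTR1, and YAP has none.

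The other genes of the complex were examined in windows made the same way: YAP1 itself, TEAD2 and TEAD3, and VGLL1, VGLL2 and VGLL3, relatives of VGLL4 that also bind TEAD. Their hg19 spans came from general knowledge and not from an annotation. These 6 windows held 13 TEAD peaks, at 8.92 per Mb (interval 4.75 to 15.3), against 3.10 for the list. Their 8 YAP5SA peaks came to 5.49 per Mb (interval 2.37 to 10.8), against 3.20 for that list. No YAP peak lay in them (interval 0 to 2.53 per Mb), against 1.29 for the YAP list. The YAP5SA and YAP intervals both include the list value. TEAD peaks lay at 3 of the 6 genes, namely 8 at YAP1, 3 at TEAD2 and 2 at TEAD3, while VGLL1, VGLL2 and VGLL3 had none. The YAP1 window, at 24.8 TEAD peaks per Mb (interval 10.7 to 48.8), came next to that of WWTR1. The windows of both co-activator genes thus held the most TEAD peaks among the 10, counting those in the flanks. TEAD2 had 13.5 per Mb (interval 2.77 to 39.3) and TEAD3 had 8.93 (interval 1.08 to 32.3). Both intervals overlap that of YAP1, and differences between windows were not tested.

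At YAP1 the strongest TEAD peak was the one at the gene start, chr11:101980855-101981211, with a score of 349 (rank 748), and it opened a cluster of 5 TEAD peaks over 19.6 kb that held no YAP5SA peak. A YAP5SA peak overlapped a TEAD peak once in this window, 99.0 kb upstream, where the TEAD peak scored 267 and the YAP5SA peak 86.5. Another YAP5SA peak with a score of 77.1 lay inside YAP1, 5.75 kb before its end and 41.1 kb from any TEAD peak. TEAD2 had a weak TEAD peak at its start, chr19:49865986-49866212, with a score of 67.0, and a stronger one 80.2 kb upstream, with a score of 420, that overlapped a YAP5SA peak with a score of 91.7. TEAD3 had its stronger TEAD peak 11.6 kb inside the gene, with a score of 103, and its YAP5SA peaks were 49.4 kb or more from TEAD. VGLL1 had no peak of any list. VGLL3 had a YAP5SA peak inside the gene with a score of 109, rank 231, that was 533 kb from the nearest TEAD peak.

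Over all 10 genes, a TEAD peak centre lay within 1 kb of the gene start at 5: TEAD1, TEAD4, VGLL4, YAP1 and TEAD2. A YAP5SA centre lay there at 2, TEAD1 and TEAD4, and a YAP centre at none. The share of all genes with a TEAD peak this close to their start was not analysed here, since no hg19 annotation was used, so these counts are a description of the 10 genes. Starts here are the outer ends of the spans, and the promoter table lists further starts for VGLL4, WWTR1 and TEAD2.

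**Figure D5:**
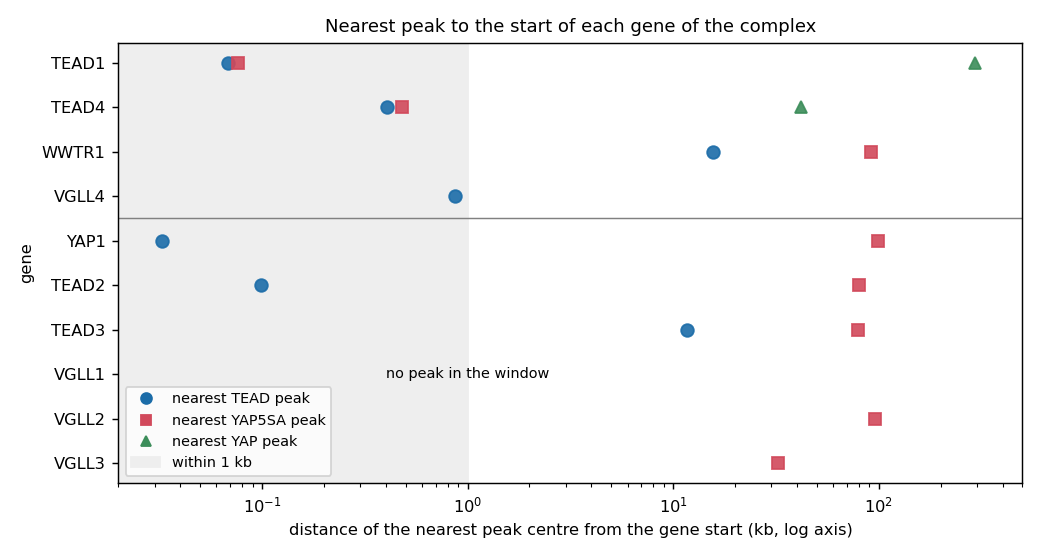
Distance in kb (log axis) from the start of each gene to the centre of the nearest TEAD, YAP5SA and YAP peak in its window, for the 4 loci above the line and the 6 other genes of the complex below it; grey marks distances within 1 kb, to which starts are given at best (WWTR1 less closely). TEAD peaks fall in the grey zone at TEAD1, TEAD4, VGLL4, YAP1 and TEAD2, and YAP5SA peaks at TEAD1 and TEAD4.

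Sequence upstream of a listed start is shown for 3 genes from the RefSeq promoter table for GRCh38.p14. That table has entries for 8 of the 10 genes. VGLL4 and WWTR1 are members of the 4 loci, with and without a TEAD peak within 1 kb of the start of the span. YAP1 is the gene with a TEAD peak there whose entry holds the TEAD motif. TEAD2, which also had a TEAD peak within 1 kb, has 2 entries, neither of which holds it. TEAD factors prefer the letters GGAATG, whose reverse complement is CATTCC. Each line gives the 250 bases before the start that lies farthest upstream among the table's entries, read 5′ to 3′ on the gene's strand, with a match in capitals. Whether this start is the start of the hg19 span, from which peak distances were taken, was not checked. The positions are in GRCh38.p14, chr3:11720540-11720789 on the minus strand for VGLL4, chr11:102110197-102110446 on the plus strand for YAP1 and chr3:149703274-149703523 on the minus strand for WWTR1, and cannot be set against the hg19 peaks base by base.
VGLL4: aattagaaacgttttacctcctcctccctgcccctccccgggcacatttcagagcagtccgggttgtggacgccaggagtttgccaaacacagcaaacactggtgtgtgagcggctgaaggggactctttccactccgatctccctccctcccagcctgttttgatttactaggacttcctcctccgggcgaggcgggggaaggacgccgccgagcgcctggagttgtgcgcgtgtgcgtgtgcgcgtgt
YAP1: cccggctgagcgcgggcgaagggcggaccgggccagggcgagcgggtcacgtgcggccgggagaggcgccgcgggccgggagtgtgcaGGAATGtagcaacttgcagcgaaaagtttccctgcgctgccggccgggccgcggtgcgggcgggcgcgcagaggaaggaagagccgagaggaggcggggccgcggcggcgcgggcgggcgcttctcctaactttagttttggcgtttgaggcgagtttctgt
WWTR1: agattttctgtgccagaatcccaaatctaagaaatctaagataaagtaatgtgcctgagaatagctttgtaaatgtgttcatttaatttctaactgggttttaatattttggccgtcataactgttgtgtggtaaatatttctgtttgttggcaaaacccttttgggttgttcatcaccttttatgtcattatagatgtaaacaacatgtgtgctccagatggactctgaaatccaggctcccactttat

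The YAP1 sequence holds GGAATG once, beginning 162 bases before the start, and the other sequences do not hold it on either strand. In the table's windows of 250 bases before and 50 after a start, none of the 7 entries of VGLL4 and WWTR1 held it, 2 of the 7 entries of the other genes did (YAP1 and VGLL1), and 14.0% of all 35116 entries did. The letters of the AP-1 motif, TGANTCA, which reads the same on both strands, were in none of these 14 entries and in 7.71% of all. VGLL1 holds the letters and had no TEAD peak in its window. VGLL4 lacks them in these windows and had a TEAD peak centred 0.867 kb inside the start of its span. A sequence window at that start ends 50 bases after it and does not reach the peak. Whether windows of the other listed VGLL4 starts do was not checked. A match is only a description of these letters, and the peaks themselves can lie outside the windows.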

How the data were processed

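Peak lists of the TEAD, YAP5SA and YAP libraries were used. Per the labels' protocols, glycine at 0.125 M ended fixation and sonication gave fragments near 250 bp. Per the submitters' processing notes, alignment was to hg19 with Bowtie2. The authors deposited, for each library, the position, a MACS peak name and a score of every peak; the score is the only measured unit, and the caller's version, threshold and control are not stated in the sources used here. Starts were read as counted from 0 and are printed counted from 1; 1 start below 0 was set to 0.

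The loci and gene lists were chosen with earlier results of these data known. The peaks named were, by rule, every YAP peak, every YAP5SA peak at or within 1 kb of a TEAD peak, the 3 strongest TEAD peaks and the strongest YAP5SA peak of each locus, the TEAD peaks nearest to the ends of the span, and every shared region; the rest were added so that all 27 are accounted for. Those described at the 6 other genes were picked after their values were seen. Gene orientation came from the RefSeq promoter table or, for TEAD1 and TEAD4, general knowledge. Neighbours were named from the RefSeq gene table of GRCh38.p14, and none of its coordinates was used with the peaks. Spans differed from gene lengths in that table by at most 12.4 kb at the 4 loci (WWTR1) and 1.18 kb at the 6 other genes.

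List densities are peaks over 3006 Mb, the sum over chromosomes and contigs from the first to the last peak base. The overlap code was checked on simulated lists of the real sizes: with 9321 simulated TEAD peaks and 200 planted overlaps with YAP5SA it found 200. Its counts in the real lists equalled those of bedtools 2.31.1. The software was Python 3.11.15 with scipy 1.17.1, pandas 2.3.3, numpy 2.4.6 and matplotlib 3.10.9.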

Additional observations from a re-analysis of the deposited data

How the results depend on the processing

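The density ratios and shares were recomputed under 12 settings, 1 of them (without the WWTR1 locus) added after seeing the data. Of 48 values, 44 stayed within the 95% counting interval of the value reported, and 4 did not. Those intervals rest on 19, 6 or 2 peaks and are wide, and the settings share many of these peaks. Staying inside therefore says little about stability. The ratio of TEAD density at the loci to its list was 3.99 and ran from 2.31 without WWTR1 to 5.46 in the higher-scoring 50% of each list. With peaks of a score of at least 100 few were left: the YAP5SA ratio was 6.46 from 1 peak, the YAP ratio 0 from none, and the share of YAP5SA peaks with TEAD within 1 kb 100% from 1 peak. The share of TEAD peaks at YAP5SA ran from 5.26%, with a reciprocal overlap of 50%, to 25%, without WWTR1. The share over the whole list was not recomputed under these settings. Windows with no flank or flanks of 50 kb and 200 kb gave TEAD ratios of 4.83, 3.98 and 3.73. No paired analysis was possible because there are no replicates to pair, and none could be left out. Depth is unknown, so how many weaker sites went unlisted is unknown too.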
